A study of Mus musculus with 4 samples.

Results

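The CXCR2 chemokines and their receptors were described in bronchial epithelial cells of mice with allergic airway inflammation. The members were taken by gene name, as the probes of Cxcl1, Cxcl2, Cxcl3, Cxcl5, Cxcl15, Cxcr1 and Cxcr2. Each of these 7 genes had 1 probe, printed once on the array, so they are 7 of 39429 probes and 7 of 28511 genes.

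CXCR2 is a receptor on the surface of neutrophils that couples to inhibitory G proteins and drives the migration of the cell up a gradient of its ligands. The ligands are small secreted chemokines, made by epithelial cells, macrophages and other cells when interleukin 1, tumour necrosis factor, interleukin 17 or bacterial products act on them. NF-kB is the main transcription factor of this induction, and short-lived mRNAs keep the ligands low at rest. In the airways the ligands bring neutrophils out of the blood and towards the epithelium. CXCR1 is the closely related receptor of the same cells.

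Mice were Pla2g3+/+ or labelled Pla2g3-/-. Pla2g3 encodes group III secreted phospholipase A2, an enzyme that frees fatty acids and lysophospholipids from phospholipids. The 4 groups were Pla2g3+/+ control, labelled Pla2g3-/- control, Pla2g3+/+ antigen challenged and labelled Pla2g3-/- antigen challenged. In the model, 10 µg of ovalbumin (OVA) with 1.3 mg of alum in 0.2 ml was injected on days 0 and 14. An aerosol of 1% OVA was then breathed for 30 min each on days 26, 27 and 28. The lungs were removed 3 h after the challenge to isolate the cells. The treatment of the control mice, the strain, the age, and the part of Pla2g3 that was deleted are not given in the sources used here. RNA pooled from 4 samples went on 1 array per group, all on 1 slide, so a difference between groups has no replicate check. A difference can come from a pool or its labelling as well as from the condition, and these cannot be told apart.

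Values are intensity units of the scanner's processed signal. Levels are log2 of that signal minus the array's 75th percentile, which was 1808 to 1986 units. The error given with a difference is the scanner's own error for the spots, and does not cover animals, pools or hybridisation. For probes printed 10 times, the SD between spots within 1 array was scaled to that of a difference between 2 spots. Its median was 0.41 at 10 to 30 units, 0.21 at 30 to 100 units and 0.10 at 100 to 1000 units. It does not cover variation between arrays. On the arrays 79.2% to 81.9% of spots were well above background. All 14 airway epithelial markers, Epcam and Scgb1a1 among them, were well above background on every array, and none differed 2-fold in any comparison. The Pla2g3 probes went against the labels. The first read 239 and 254 units on the Pla2g3+/+ control and challenged arrays, and 2023 and 4154 units on those labelled Pla2g3-/-. The second read 44.1 and 13.1 units, and 177 and 336 units. Without knowing which part of the gene was deleted, these values cannot settle whether labels were exchanged. Genotype names below, Pla2g3+/+ included, are those of the labels, and if they were exchanged every genotype difference would change sign and the challenge effects would change places. The labelled Pla2g3-/- control array stood apart. The summed level of 7 markers of developing T cells was 17.6 there, against 0.505 to 1.17 on the other arrays, in multiples of the 75th percentile. Because of the developing T cell markers, each challenged array was also set against the control array of the other genotype. Such a value holds the genotype difference between controls as well as the challenge, and these cannot be told apart in it.

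Every member was highest on the labelled Pla2g3-/- challenged array, but the share of all genes highest there was not counted. Set against the control array of its own genotype, each of the 7 genes read higher after challenge in both genotypes. The share of all genes higher by any amount was not counted, and their median was −0.03 in Pla2g3+/+ and −0.06 in labelled Pla2g3-/- cells. At least 2-fold higher in both genotypes were 6 of the 7, against 180 of 23185 genes with a value (0.776%). In Pla2g3+/+ cells the 2-fold count depended on the settings. It was 6 of 7 members as processed here, against 1.81% of all genes. It was 2 with normexp, a background correction that adds an offset of 50 units and so narrows differences of dim probes, and 3 with the control arrays exchanged, where Cxcl1 turned to −0.70. The ligands did not share 1 pattern. Cxcl5 stood far above both controls on both challenged arrays, whereas Cxcl1, Cxcl2 and Cxcl3 stood far above the other 3 arrays on the labelled Pla2g3-/- challenged array. In bulk RNA, more cells of a type and more RNA per cell cannot be told apart, and this holds for every level below.

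**Figure D1:**
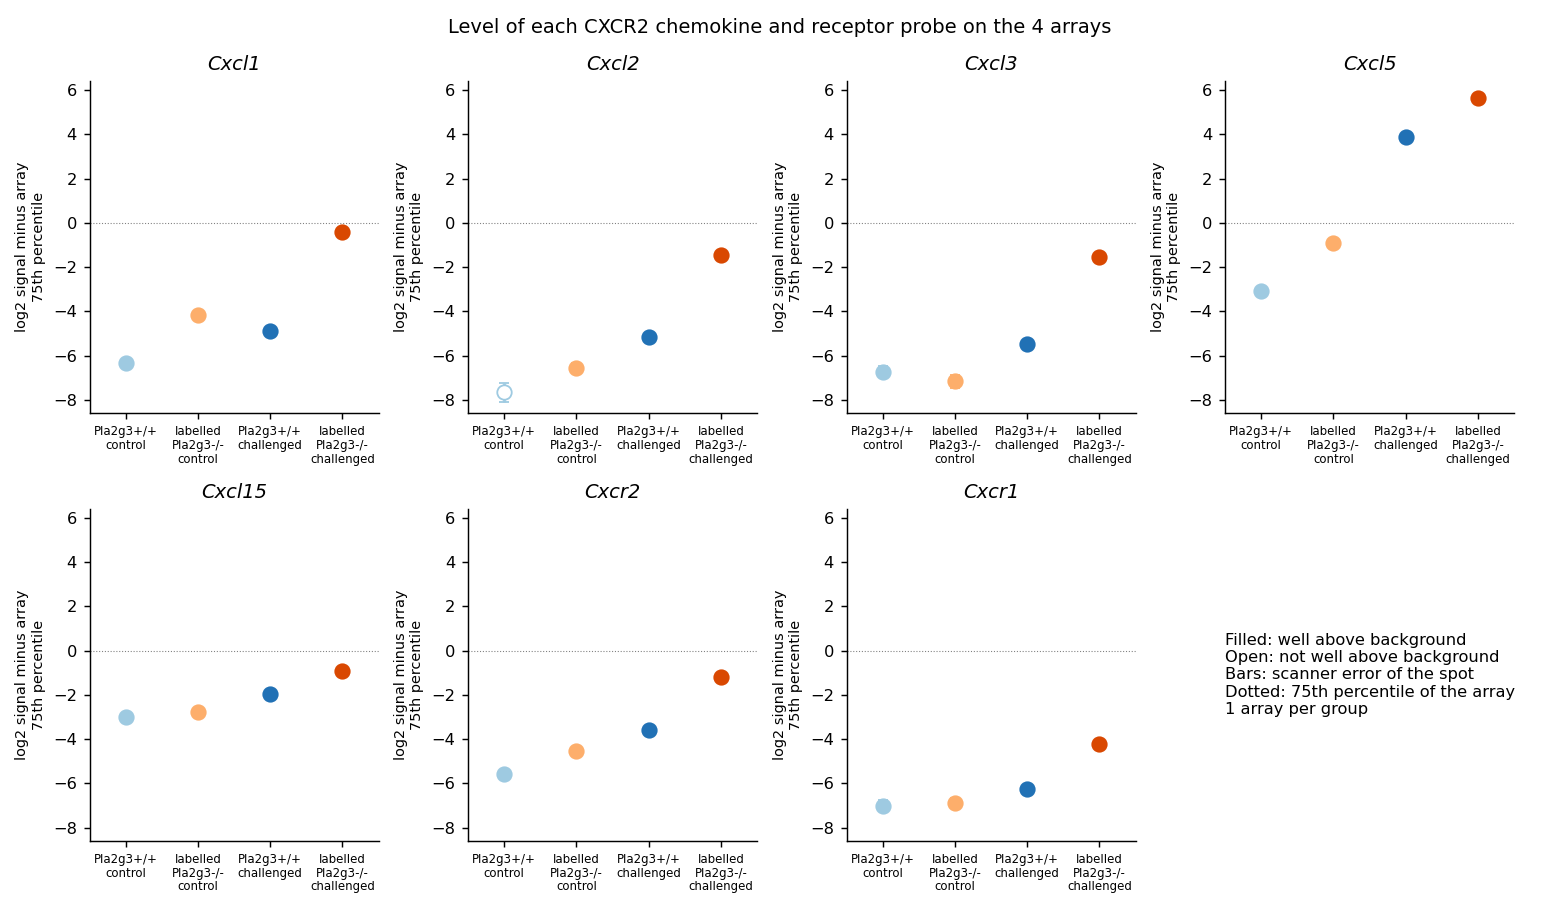
Level of each member on the 4 arrays, as log2 of the processed signal minus the array's 75th percentile (y axis) by group (x axis), 1 array per group, with the scanner's error of the spot as a bar. Every member is highest on the labelled Pla2g3-/- challenged array, and the share of all genes highest there was not counted. Cxcl1 is higher on the labelled Pla2g3-/- control array (−4.17) than on the Pla2g3+/+ challenged array (−4.88).

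Cxcl1, Cxcl2 and Cxcl3 encode the closest relatives among the ligands, known as KC, MIP-2 and dendritic cell inflammatory protein 1. RefSeq promoter windows of the GRCm38.p6 build were found for 6 of the 7 members, and Cxcl5 had no entry. They were searched on both strands, from 250 bases before to 50 bases after the transcription start, for NF-kB letters, taken as GGG, any 2 bases, then TTTCC. The letters were in the windows of Cxcl1, Cxcl2 and Cxcl3, and in none of Cxcl15, Cxcr1 and Cxcr2. Of all 32851 RefSeq windows of this length, 535 (1.63%) held them. The 250 bases before the start are shown for these 3 genes, which had the largest differences between genotypes after challenge, and for Cxcl15, which had the smallest. Capitals mark the NF-kB letters on either strand.
Cxcl1, chr5:90890995-90891244, plus strand: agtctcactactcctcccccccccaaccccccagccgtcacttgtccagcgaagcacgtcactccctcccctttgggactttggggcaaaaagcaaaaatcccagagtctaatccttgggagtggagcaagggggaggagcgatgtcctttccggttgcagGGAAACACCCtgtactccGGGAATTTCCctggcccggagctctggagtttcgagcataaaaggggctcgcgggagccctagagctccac
Cxcl2, chr5:90903649-90903898, plus strand: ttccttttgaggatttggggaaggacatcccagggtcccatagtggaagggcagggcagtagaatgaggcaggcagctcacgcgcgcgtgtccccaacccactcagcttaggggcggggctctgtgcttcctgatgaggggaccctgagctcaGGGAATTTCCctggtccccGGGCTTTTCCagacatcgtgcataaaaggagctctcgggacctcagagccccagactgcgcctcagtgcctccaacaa
Cxcl3, chr5:90785851-90786100, plus strand: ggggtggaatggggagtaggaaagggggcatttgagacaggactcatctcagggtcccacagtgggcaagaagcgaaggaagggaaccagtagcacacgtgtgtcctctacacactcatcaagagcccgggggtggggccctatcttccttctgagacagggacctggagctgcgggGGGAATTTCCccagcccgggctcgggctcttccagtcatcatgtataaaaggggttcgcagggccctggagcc
Cxcl15, chr5:90794284-90794533, plus strand: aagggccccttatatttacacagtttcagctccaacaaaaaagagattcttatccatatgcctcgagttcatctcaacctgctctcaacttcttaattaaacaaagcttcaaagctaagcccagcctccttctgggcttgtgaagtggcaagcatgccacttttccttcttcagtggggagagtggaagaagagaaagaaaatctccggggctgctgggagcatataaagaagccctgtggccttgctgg
In Cxcl1 the match on the plus strand lay from −71 to −62 and one on the minus strand from −89 to −80, counted from the start. Cxcl2 held one from −97 to −88 and another from −78 to −69. The match of Cxcl3 lay from −73 to −64, and the same run, GGGAATTTCC, stood in all 3 genes. Looser letters, GGG and CC with any 5 bases between, which include the first set, were in 5 of the 6 windows and in 50.8% of all windows. Letters for AP-1 (TGANTCA) were in no member window and in 7.81% of all. Those for C/EBP (TTNNGNAA) were in that of Cxcl2, from −236 to −229, and in 40.7% of all. TATAAA was found in Cxcl3, from −30 to −25, and in Cxcl15, from −27 to −22, against 13.6% of all windows. Aligned promoters of Cxcl2 and Cxcl3 were 54.7% identical, those of Cxcl1 and Cxcl3 50.7%, and those of Cxcl1 and Cxcl2 49.7%. All other pairs of the 6 promoters were nearly as high, from 41.9% (Cxcl15 and Cxcr1) to 48.0% (Cxcl3 and Cxcr2). These are matches of letters only.

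**Figure D2:**
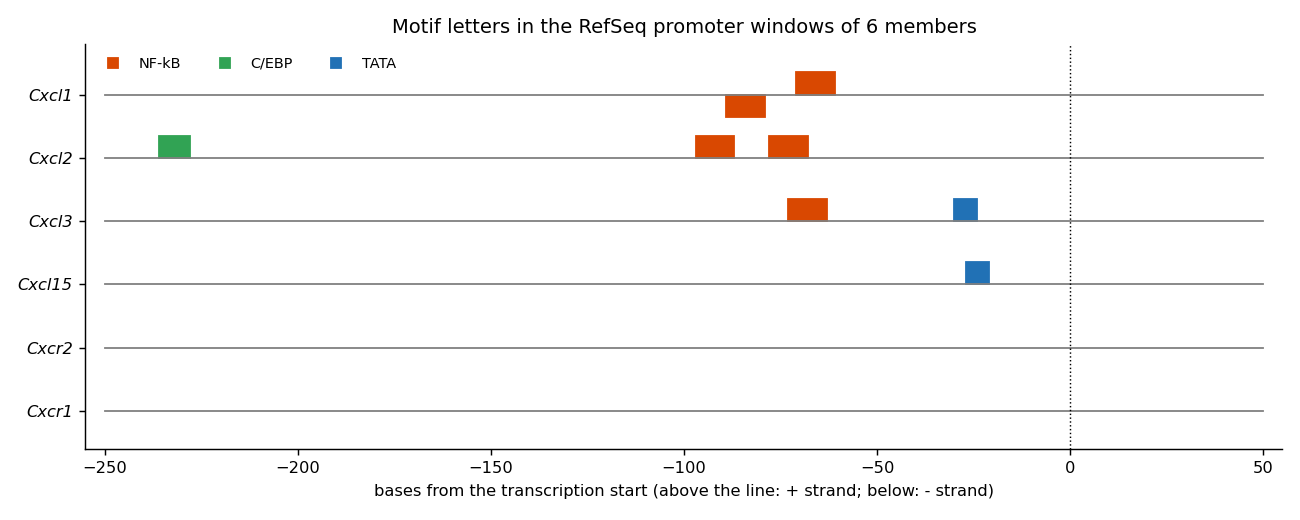
Position of motif letters in the RefSeq promoter windows of 6 members, in bases from the transcription start (x axis), with boxes above a line for the plus strand and below it for the minus strand. NF-kB letters lie within 100 bases before the start in Cxcl1, Cxcl2 and Cxcl3, and the windows of Cxcr2 and Cxcr1 hold none of the plotted letters.

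Cxcl1, a neutrophil attractant made by epithelial cells and macrophages, was read by a probe on chromosome 5 from 91321845 to 91321904 (mm9). Its signal was 24.7 units on the Pla2g3+/+ control array, 102 on the labelled Pla2g3-/- control, 61.5 on the Pla2g3+/+ challenged array and 1495 on the labelled Pla2g3-/- challenged array. The last array was far above the other 3, and the labelled Pla2g3-/- control exceeded the Pla2g3+/+ challenged array. Challenge went with a log2 difference of 1.45 ± 0.25 (scanner error) in Pla2g3+/+ cells, or 2.74-fold. In labelled Pla2g3-/- cells it was 3.77 ± 0.21, or 13.6-fold. The genotypes differed by 2.16 ± 0.24 (4.46-fold) between controls and by 4.47 ± 0.21 (22.2-fold) between challenged arrays. That last value ranked 3 of 23728 genes from the highest. Against the Pla2g3+/+ control, the labelled Pla2g3-/- challenged array was 5.92 higher on the log2 scale. Set against the labelled Pla2g3-/- control instead of its own, the Pla2g3+/+ challenged array gave −0.70, so the direction of the challenge difference for Cxcl1 in Pla2g3+/+ cells turned with the control array.

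Cxcl2 is the ligand that macrophages and neutrophils themselves make in quantity. Its probe, on chromosome 5 from 91334534 to 91334593, read 9.9 units on the Pla2g3+/+ control array and was not well above background there. It read 19.5 units on the labelled Pla2g3-/- control, 51.4 on the Pla2g3+/+ challenged and 731 on the labelled Pla2g3-/- challenged array. Both controls lay below both challenged arrays. Challenge went with a difference of 2.51 ± 0.45 (5.7-fold) in Pla2g3+/+ cells, treated as a lower bound because of the dim spot. It was taken against the dim signal itself, at −7.65, as the lowest level well above background on that array was −7.68. It is thus no firmer than the plain difference, and was 0.61 with normexp. In labelled Pla2g3-/- cells the difference was 5.12 ± 0.27 on the log2 scale (34.7-fold, rank 8 of 23617). Between challenged arrays the genotypes differed by 3.70 ± 0.21 (13-fold). Between controls the labelled Pla2g3-/- array was higher by 1.09 ± 0.48 (2.13-fold), again taken against the dim signal. Because of the dim spot, Cxcl2 has no value in the difference of challenge effects and was not in the limma fit.

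Cxcl3 had the largest gap between the challenge effects of the 2 genotypes. Its probe, on chromosome 5 from 91216694 to 91216753, read 18.8 units on the Pla2g3+/+ control array, 13 on the labelled Pla2g3-/- control, 41.2 on the Pla2g3+/+ challenged and 690 on the labelled Pla2g3-/- challenged array. The controls were both dim, and the scanner software did not find the spot on the Pla2g3+/+ challenged array, so that value was read at the expected place. The difference with challenge was 1.27 ± 0.29 (2.41-fold) in Pla2g3+/+ cells and 5.62 ± 0.32 (49.3-fold, rank 4 of 23617) in labelled Pla2g3-/- cells. Between controls the genotypes differed by −0.42 ± 0.37, about the size of the scanner error. Between challenged arrays the difference was 3.93 ± 0.22 (15.3-fold, rank 7 of 23728).

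Cxcl5, also called LIX, is the ligand that lung epithelial cells are best known for making. Its probe, on chromosome 5 from 91190490 to 91190549, read 238 units on the Pla2g3+/+ control array, 962 on the labelled Pla2g3-/- control, 26473 on the Pla2g3+/+ challenged and 98141 on the labelled Pla2g3-/- challenged array. Both challenged arrays were far above both controls, and no spot was saturated. Cxcl5 ranked 1 in both challenge comparisons. Its challenge effects, 6.93 ± 0.20 in Pla2g3+/+ cells and 6.56 ± 0.20 in labelled Pla2g3-/- cells, differed by −0.37 ± 0.29. The genotype differences were likewise close to each other, with 2.13 ± 0.20 (4.38-fold) between controls and 1.76 ± 0.20 (3.39-fold) between challenged arrays. Against the Pla2g3+/+ control, the labelled Pla2g3-/- challenged array was higher by 8.69.

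Cxcl15, or lungkine, is a chemokine of mouse bronchial epithelium with no human counterpart of the same name. Its probe, on chromosome 5 from 91231948 to 91232007, read 252 units on the Pla2g3+/+ control array, 271 on the labelled Pla2g3-/- control, 460 on the Pla2g3+/+ challenged and 1032 on the labelled Pla2g3-/- challenged array. The controls differed by 0.22 ± 0.20, about the scanner error, and lay below both challenged arrays. It had the smallest challenge difference of the member chemokines, 1.01 ± 0.20 (2.01-fold) in Pla2g3+/+ cells and 1.82 ± 0.20 (3.52-fold) in labelled Pla2g3-/- cells. Challenged arrays differed by 1.04 ± 0.20 between genotypes (2.05-fold).

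Cxcr2, the receptor that gives the group its name, is expressed mainly by neutrophils. Its probe, on chromosome 1 from 74206886 to 74206945, read 41.2 units on the Pla2g3+/+ control array, 79.7 on the labelled Pla2g3-/- control, 150 on the Pla2g3+/+ challenged and 861 on the labelled Pla2g3-/- challenged array. Both controls were below both challenged arrays. Challenge went with 1.99 ± 0.21 (3.98-fold) in Pla2g3+/+ cells, or 0.93 against the labelled Pla2g3-/- control, and 3.32 ± 0.21 (10-fold) in labelled Pla2g3-/- cells. The genotype difference was 1.07 ± 0.22 (2.09-fold) between controls and 2.39 ± 0.20 (5.26-fold) between challenged arrays.

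Cxcr1 is the second chemokine receptor of neutrophils, with a gene beside that of Cxcr2. Its probe, on chromosome 1 from 74238359 to 74238418, read 15.6 units on both control arrays, 23.4 on the Pla2g3+/+ challenged and 106 on the labelled Pla2g3-/- challenged array. The spot was not found by the scanner software on the Pla2g3+/+ control array. The labelled Pla2g3-/- challenged array stood clear of the other 3. The difference with challenge was 0.72 ± 0.30 in Pla2g3+/+ cells, under 2-fold, and 2.66 ± 0.27 (6.32-fold) in labelled Pla2g3-/- cells. Controls differed by 0.11 ± 0.33 between genotypes, within the scanner error, and challenged arrays by 2.05 ± 0.23 (4.14-fold).

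**Figure D3:**
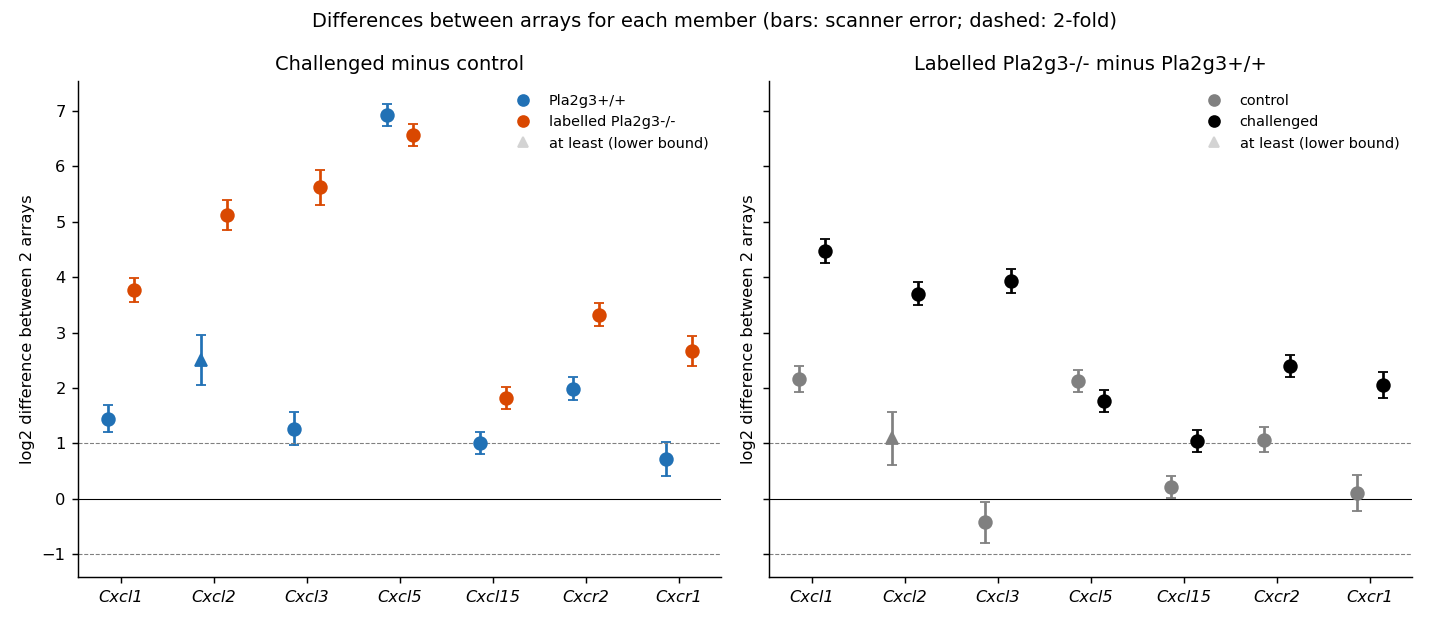
Log2 differences between 2 arrays (y axis) for each member (x axis), challenged minus control on the left and labelled Pla2g3-/- minus Pla2g3+/+ on the right. Bars are scanner errors, and dashed lines mark 2-fold. Triangles are values of Cxcl2 taken against its dim signal and treated as lower bounds. Cxcl5 has nearly the same challenge difference in both genotypes (6.93 and 6.56), while Cxcl3 goes from 1.27 in Pla2g3+/+ to 5.62 in labelled Pla2g3-/- cells.

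The challenge comparison asks which genes were higher in antigen-challenged cells. Because the treatment of the controls is not given, sensitisation and challenge cannot be told apart in it. In Pla2g3+/+ cells 6 of the 7 members were at least 2-fold higher, Cxcl2 against its own dim signal, and none was 2-fold lower. Among all 23954 genes with a value, 1.81% were at least 2-fold higher and 1.68% lower. The members' median was 1.45 and that of all genes −0.03. In labelled Pla2g3-/- cells all 7 were at least 2-fold higher, against 3.87% of 23617 genes higher and 3.41% lower. There the members' median was 3.77, and that of all genes −0.06. With the control arrays exchanged, or with normexp, the count in labelled Pla2g3-/- cells remained 7 of 7. The values with exchanged controls also hold the genotype difference between controls. With normexp Cxcl5 was 6.63 and Cxcr2 1.25 higher in Pla2g3+/+ cells, whereas Cxcl1 was at 0.68, Cxcl2 at 0.61 and Cxcl3 at 0.50.

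Only an additive limma fit of challenge and genotype over the 4 arrays gave a test, with 1 residual degree of freedom. Of 22115 genes well above background on all arrays, 5 rose with challenge at a Benjamini-Hochberg adjusted p of 0.05 (0.0226%) and 0 fell (0%), with 3476 (15.7%) at an unadjusted p of 0.05 in either direction. Cxcl5 ranked first among them, with a log2 estimate of 6.75 (standard error 0.12) and an adjusted p of 0.00344 in limma, and both challenged arrays above both controls. The other 5 fitted members did not pass. Cxcr2 had an estimate of 2.66 (standard error 0.35, limma adjusted p 0.149) and Cxcl15 one of 1.41 (0.23, limma adjusted p 0.167). For Cxcl1 it was 2.61 (0.57, limma adjusted p 0.214), for Cxcr1 1.69 (0.50, limma adjusted p 0.254) and for Cxcl3 3.45 (1.04, limma adjusted p 0.258). The model counts any gap between the genotypes' challenge effects as error, and that gap was smallest for Cxcl5 and largest for Cxcl3. Without the trend of variance on level, limma called 0 genes for challenge (2894 at an unadjusted p of 0.05), and Cxcl5 had an adjusted p of 0.103.

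**Figure D4:**
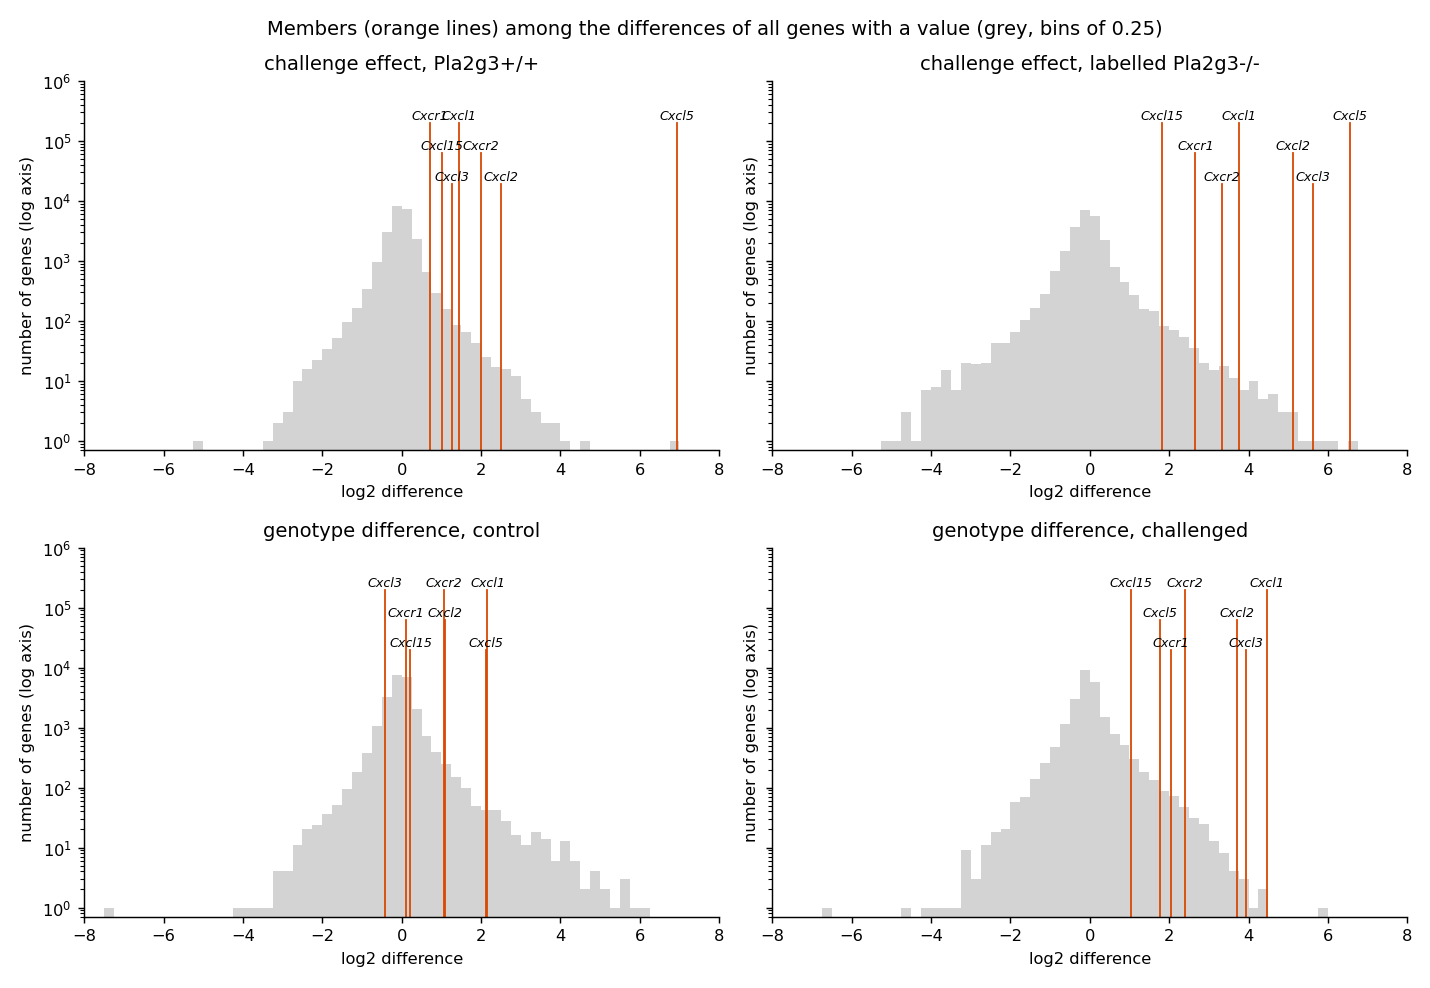
Number of genes (y axis, log scale) by log2 difference (x axis, bins of 0.25) in the 4 comparisons, with the members as orange lines. Cxcl2 is placed against its own dim signal in the comparisons that use the Pla2g3+/+ control array. Cxcl5 is the highest of all genes in both challenge comparisons, and all 7 members lie above 1 between challenged arrays, from 1.04 for Cxcl15 to 4.47 for Cxcl1.

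The genotype comparison sets arrays labelled Pla2g3-/- against Pla2g3+/+, with and without challenge. Between controls 4 of 7 members were at least 2-fold higher on the labelled Pla2g3-/- array, and none was lower. They were Cxcl1, Cxcl5, Cxcr2 and, against its own dim signal, Cxcl2 (1.09 ± 0.48). The share of all 23823 genes was 3.19% higher and 1.8% lower. The median was 1.07 for the members and −0.03 for all genes. Between challenged arrays 7 of 7 were at least 2-fold higher, against 3.84% of 23728 genes higher and 2.49% lower, with medians of 2.39 and −0.05. Normexp left 2 members 2-fold higher between controls, Cxcl1 and Cxcl5, and 5 between challenged arrays, with Cxcl15 at 0.94 and Cxcr1 at 0.92. In the limma fit of genotype, 1 gene was called higher (0.00452%) and 7 lower (0.0317%), with 2753 (12.4%) at an unadjusted p of 0.05. No member was among those called. Cxcl5 came nearest with an estimate of 1.95 (standard error 0.12, limma adjusted p 0.0602), and Cxcl1 had 3.31 (0.57, limma adjusted p 0.17). With no filter on dim probes Cxcl5 passed, at a limma adjusted p of 0.0279, and under every other setting it did not. Without the trend its limma adjusted p was 0.236.

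The difference of challenge effects is the effect in labelled Pla2g3-/- cells minus that in Pla2g3+/+ cells. It uses all 4 arrays once and leaves no error between arrays, so it was not tested. Of 6 members with a value, 4 were at least 2-fold higher and none lower, against 2.82% higher and 2.7% lower among 22115 genes. Cxcl3 had 4.36 ± 0.43 (rank 2), Cxcl1 2.32 ± 0.32 (rank 76), Cxcr1 1.94 ± 0.40 (rank 137) and Cxcr2 1.33 ± 0.30 (rank 362). Cxcl15 stood at 0.81 ± 0.29 and Cxcl5 at −0.37 ± 0.29. The gap was thus widest for Cxcl3 and Cxcl1, and Cxcl5 alone had a value below 0.

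The members' patterns over the 4 arrays were compared by the root mean square difference of their centred log2 levels, over 6 members. The levels were not scaled, so the measure also depends on a gene's range over the arrays. That range was 2.04 for Cxcl15, 2.77 for Cxcr1 and 8.69 for Cxcl5. Cxcl15 and Cxcr1 were the most alike, at 0.39, followed by Cxcr1 and Cxcr2 at 0.60. Cxcl5 and Cxcl15 were the least alike, at 2.76, and Cxcl1 and Cxcl3 differed by 1.02. Among 1821 other genes with a range of at least 1, those nearest to Cxcl1 were Il1b (0.69), Il17a (0.79) and Mirt2 (0.81). Nearest to Cxcl3 were Acod1 (0.32), Il17a (0.32) and Ccl7 (0.39). Cxcl5 had no near neighbour, with Slfn4 (1.46), Mirt2 (1.54) and Kcnj15 (1.62) as the first 3. Next to Cxcl15 came Plat (0.04), Tnf (0.06) and Hk2 (0.06). Cxcr1 lay nearest to Ptafr (0.10), Cd300lf (0.11) and Ch25h (0.13), and Cxcr2 to Ccl12 (0.10), Mab21l3 (0.10) and Stfa2l1 (0.16). Ptafr encodes the receptor of platelet-activating factor, and Stfa2l1 a stefin of neutrophils.

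The 5 chemokine genes among the members lie in 1 cluster on chromosome 5, which also holds chemokine genes outside the members. The order in RefSeq is Cxcl5, Ppbp, Pf4, Cxcl3, Cxcl15, Cxcl1, Cxcl2, followed by Mthfd2l, Epgn and Ereg. Ppbp and Pf4 encode chemokines that platelets store, and both stand between Cxcl5 and Cxcl3. With challenge Ppbp differed by 0.04 in Pla2g3+/+ and 1.17 in labelled Pla2g3-/- cells, and Pf4 by −0.50 and 1.00. Mthfd2l, the gene just past Cxcl2, gave 0.08 and 0.05, and Rassf6, before Cxcl5, 0.43 and 0.62. The growth factor genes further out were not alike, with 1.04 and −0.96 for Epgn, and −0.16 and at least 1.73 for Ereg. Of 6 measured neighbours on chromosome 5, 1 was at least 2-fold higher with challenge in Pla2g3+/+ cells and 2 in labelled Pla2g3-/- cells, where Pf4 fell just short before rounding. Cxcr2 and Cxcr1 lie side by side on chromosome 1, and of 4 measured genes around them (Tns1, Rufy4, Arpc2 and Gpbar1) none differed 2-fold in any comparison. No measured gene around the receptors therefore had a difference like that of Cxcr2.

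Cytokines that induce the ligands were a list of 14 genes. Of these, 11 had a value in Pla2g3+/+ cells, with 3 at least 2-fold higher with challenge, none lower and a median of 0.53. In labelled Pla2g3-/- cells it was 9 of 12 with a median of 2.89, and between challenged arrays 9 of 12 with a median of 2.49. Bounds are included, for Il1a, Il1f9, Il6 and Csf3 in labelled Pla2g3-/- cells, Il1f9 in Pla2g3+/+ cells and Il1a between challenged arrays. A gene dim on the control array had a value only if it was well above background after challenge. The challenge counts and medians therefore favour higher values. Only 7 of the 14 genes were well above background on every array. Between controls none of 9 was higher and 1 was lower, Il6 as a bound. Il1b, interleukin 1 beta, was higher by 2.23 and 4.62 with challenge in Pla2g3+/+ and labelled Pla2g3-/- cells. Il17a, interleukin 17A, stood at 0.88 and 4.90, and Osm, oncostatin M, at 0.49 and 3.09. Csf2, the growth factor GM-CSF, had at least 0.80 and then 2.85. With normexp 1 of these cytokines was 2-fold higher in Pla2g3+/+ cells and 6 in labelled Pla2g3-/- cells.

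Receptors and adaptors that carry these signals differed less. Of 16, none was 2-fold higher with challenge in Pla2g3+/+ cells (median 0.17) and 2 were in labelled Pla2g3-/- cells (median 0.42), namely Myd88, the adaptor of interleukin 1 and Toll-like receptors, and Tlr2, with 1.73. Of 16 NF-kB subunits and feedback genes, 2 were at least 2-fold higher in Pla2g3+/+ cells, and 5 of 15 with a value in labelled Pla2g3-/- cells, with medians of 0.16 and 0.82. Bcl3, a nuclear partner of NF-kB, had 1.06 and 2.05, and Nfkbid, an inhibitor-like partner, 0.16 and 1.19. Among 10 regulators of chemokine mRNA decay, 1 and 2 were at least 2-fold higher. Zc3h12a, the nuclease regnase 1, had 1.78 and 2.62, and Arid5a, which opposes it, 0.43 and 2.20. Of 18 genes that signal below CXCR2 in the cell, none was higher and 1 lower in Pla2g3+/+ cells, and 2 were higher in labelled Pla2g3-/- cells (medians −0.11 and −0.12). Fgr, a kinase gene of this list, had 0.15 and 1.43.

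CXC chemokines outside the members, Ppbp and Pf4 among them, were counted for comparison. Of 10, 1 was at least 2-fold higher with challenge in Pla2g3+/+ cells and 5 in labelled Pla2g3-/- cells, with medians of 0.03 and 1.03. Cxcl10, a ligand of CXCR3, had 1.80 and 4.38, and Cxcl9, another, 0.07 and 3.62. Of 9 other CXC and atypical receptors none was 2-fold higher with challenge in either genotype, and 2 were lower in Pla2g3+/+ cells (Cxcr5 by −1.42 and Cxcr3 by −1.18). Both were highest on the Pla2g3+/+ control array, with genotype differences between controls of −2.04 and −0.54. Within the receptor family, a 2-fold higher level with challenge was seen for Cxcr2 in both genotypes, against their own controls, and for Cxcr1 in labelled Pla2g3-/- cells.

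**Figure D5:**
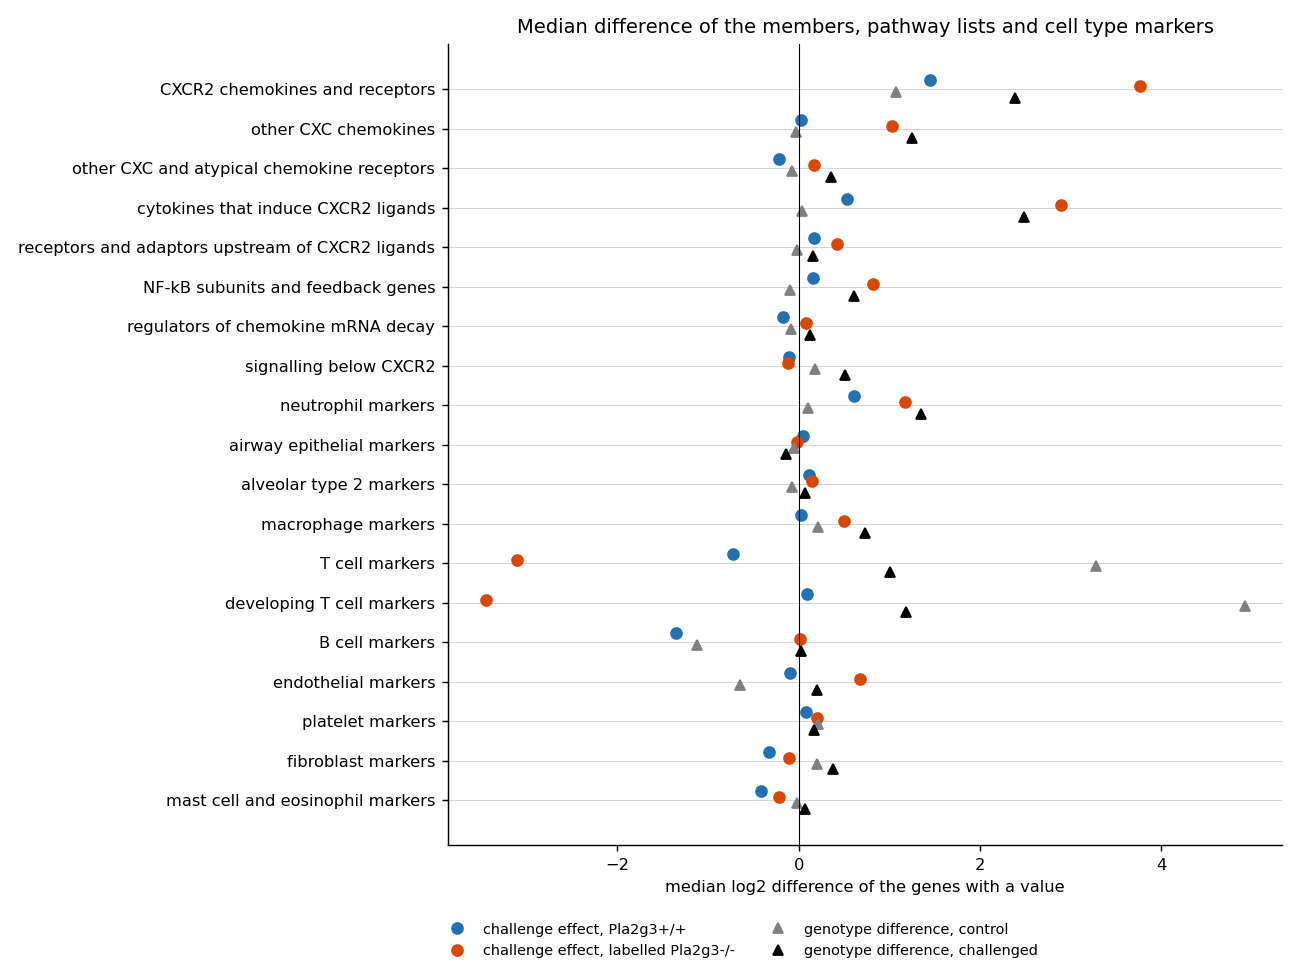
Median log2 difference (x axis) of the members, 7 pathway lists and 11 lists of cell type markers (y axis) in the challenge comparisons (circles) and genotype comparisons (triangles). The members lie at 1.45 and 3.77 with challenge, and the cytokines that induce the ligands at 0.53 and 2.89, with bounds included. Neutrophil markers lie at 0.61 and 1.17, and airway epithelial markers at 0.05 and −0.02.

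Neutrophil markers were counted because neutrophils carry both receptors. Of 16 on the array (Ly6g was not on it), 5 were at least 2-fold higher with challenge in Pla2g3+/+ cells and 8 in labelled Pla2g3-/- cells, where 1 was lower, with medians of 0.61 and 1.17. Between challenged arrays 10 of 16 were higher on the labelled Pla2g3-/- array, with a median of 1.35, and between controls 1 was, with a median of 0.10. Fpr1 and Fpr2, receptors for formylated peptides, had 0.58 and 0.74 in Pla2g3+/+ cells, and 3.67 and 3.73 in labelled Pla2g3-/- cells. Mmp8, neutrophil collagenase, had 1.58 and 3.78, and Retnlg 1.96 and 3.31. The summed level of the 16 was 237 and 248 multiples of the 75th percentile on the Pla2g3+/+ control and challenged arrays, and 227 and 261 on those labelled Pla2g3-/-. Ltf and Csf3r made up most of it. Without these 2, a choice made after their values were seen, the sum was 6.18 and 17.4 for Pla2g3+/+, and 10.1 and 59.4 for labelled Pla2g3-/-. Because of that choice, the order of the arrays in the reduced sum cannot be set against that of the members. It differed from the order in the sum of all 16, where the labelled Pla2g3-/- control was lowest. Markers that did not rise with challenge in either genotype included Elane, with −0.02 and −0.07, and Mpo, with −0.63 and −1.12. No marker on the list was at 0, as all 16 were well above background on every array. Their part in the members' differences was not tested.

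Airway epithelial markers had medians of 0.05 and −0.02 with challenge and a summed level of 986 to 1090 on the 4 arrays. T cell markers, 10 in number, were lower with challenge in labelled Pla2g3-/- cells for 9, with a median of −3.11, and higher for 9 between controls, with a median of 3.28. That is the mark of the labelled Pla2g3-/- control array described above. Against the Pla2g3+/+ control, the labelled Pla2g3-/- challenged array was higher by 5.92 for Cxcl1, 5.20 for Cxcl3 and 8.69 for Cxcl5. For Cxcl2 it was higher by 6.21, taken against the dim signal. For Cxcl15 it was higher by 2.04, for Cxcr1 by 2.77 and for Cxcr2 by 4.39. Each value is the challenge difference plus the genotype difference between controls, so it is no separate check of the challenge. It exceeded the value against the own control for every member but Cxcl3 (5.62 there), whose controls differed by −0.42 between genotypes. Of 10 macrophage markers, 1 was higher and 1 lower in Pla2g3+/+ cells and 2 were higher in labelled Pla2g3-/- cells (medians 0.03 and 0.50). Markers of alveolar type 2 cells, B cells, endothelium, platelets, fibroblasts, and mast cells and eosinophils had list medians from −1.35 (B cells) to 0.11 in Pla2g3+/+ cells and from −0.22 to 0.68 (endothelium) in labelled Pla2g3-/- cells. Macrophages also make Cxcl1 and Cxcl2, and the part of these cells in the members' levels was not tested.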

How the data were processed

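The authors deposited 1 scanner file per array, which lists spot intensity values on mm9 probe positions, per the file headers the work of Feature Extraction 11.5.1.1, Agilent's scanner software. Their series matrix holds intensity values too, which for 44397 of 44397 features stood in a constant ratio to the processed signal (log2 ratios spanning at most 1.59e-06 per array), 0.9995 to 0.9999 times that of division by the 75th percentile (column medians 0.0850 to 0.0879), and served as an alternative. Levels are log2 of the processed signal minus the 75th percentile of 43020 spots outside the controls, and 128 to 155 outlier spots per array were dropped. RefSeq named 28751 of 39429 probes, 8216 kept the file's name and 2462 had none. A gene took its brightest probe. A probe not well above background on 1 of 2 arrays gave a bound, and on both no value. Differences of at least 2-fold were counted. The additive fit used limma 3.58.1 in R 4.3.3, checked on simulated data. The number of arrays, 1 per group, limits the precision, as does low signal. Alternatives were normexp, quantile or median scaling, other percentiles, probe rules, filters, 1.5-fold, exchanged controls and no trend. Members, 18 gene lists and the rules for named genes (4 of each list, 3 nearest in pattern, 5 neighbours on either side) were chosen with earlier results of these data known.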

Additional observations from a re-analysis of the deposited data

Results flagged for a closer look

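Cxcl3 differed in opposite directions between genotypes without and with challenge. The labelled Pla2g3-/- array minus the Pla2g3+/+ array gave −0.42 between controls and 3.93 between challenged arrays, with 1 array in each group, so the difference between the 2 values was not tested. The value between controls was about the size of its scanner error of 0.37, on signals of 18.8 and 13 units, and became 0.02 with normexp background correction.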

How the results depend on the processing

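No paired analysis was possible because each group has 1 array, and leaving out an array leaves the limma fit no residual degree of freedom. Of 34 member values, all moved by less than the scanner error of the difference under every alternative but normexp, which moved 24 by more, and the exchanged controls, which apply to 14 values, moved 11 of these by more and turned Cxcl1 in Pla2g3+/+ cells to −0.70. Members at least 2-fold higher went from 6 to 2 (normexp) and 3 (exchanged controls) for challenge in Pla2g3+/+, and from 4 to 2 (normexp) between controls. Counts of genes 2-fold higher and lower with normexp were 128 and 56 for challenge in Pla2g3+/+, 377 and 317 in labelled Pla2g3-/-, 355 and 97 for genotype between controls, 288 and 148 between challenged arrays, and 262 and 297 for the difference of challenge effects. At 1.5-fold they were, in that order, 1102 and 1261, 1830 and 2353, 1575 and 1386, 1859 and 1694, and 1424 and 1573. With no filter on dim probes, challenge in Pla2g3+/+ gave 776 and 720, the difference of challenge effects 1532 and 1567, and the lower genes of the other comparisons were 1300, 834 and 1226. Exchanged controls gave 966 lower in Pla2g3+/+. Genes called by limma for challenge went from 5 higher to 8 with no filter and 0 without the trend. For genotype, genes called higher went from 1 to 0 (normexp, quantile scaling, the percentile over detected probes, the mean of probes, no trend), 3 (median scaling), 4 (series matrix, outlier spots kept) and 20 (no filter). Those called lower went from 7 to 2 (normexp), 4 (quantile), 0 (detected probes, no trend), 1 (mean of probes) and 23 (no filter). The cause of these shifts was not tested. With looser NF-kB letters 5 promoters matched in place of 3.

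Low signal limits Cxcl2, Cxcl3 and Cxcr1 on both control arrays and Cxcl1 on that of Pla2g3+/+, where the SD of a difference between repeated spots had a median of 0.41 and a 95th percentile of 1.06 at 10 to 30 units.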
